A study of Oryctolagus cuniculus with 9 samples.

Results

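The genes described here encode subunits of the mitochondrial respiratory chain and of ATP synthase. They were chosen by name, as loci whose single symbol begins with NDUFA, NDUFB, NDUFC, NDUFS, NDUFV, UQCR, ATP5 or COX followed by a digit from 4 to 8, or is SDHA, SDHB, SDHC, SDHD, CYC1 or CYCS, and 58 of the 19511 loci in the table carried such a symbol. The table lists 28 structural subunits of complex I and 7 of its assembly factors, 2 subunits of complex II, 1 of complex III, 4 loci of complex IV, 14 subunits of ATP synthase and 2 relatives of it by name, ATP5S and ATP5SL. Another 4 loci carry a matching symbol joined to a second gene and were left out. No symbol of the subunits encoded by mitochondrial DNA was matched in the table, so those subunits were not analysed here.

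RNA came from primary rabbit cells labelled as parathyroid cells, in 3 groups of 3 libraries. Controls carry the labels WT, no treatment and day 0. H/R cells, labelled IRI with no treatment, were kept for 6 h in hypoxia and then 6 h in reoxygenation, which imitates the loss and return of blood flow. GA+H/R cells, labelled IRI with GA, were first given gallic acid, a phenolic compound of plants, at 1200 µM for 24 h before the same exposure. Whether the groups spent equal time in culture is not stated, and the labels do not say whether libraries of a group came from separate animals or cultures, so p-values measure the spread between these libraries only.

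Electrons from NADH enter the respiratory chain at complex I and those from succinate at complex II, pass through ubiquinone to complex III, and reach oxygen at complex IV. Complexes I, III and IV pump protons across the inner mitochondrial membrane, and ATP synthase, complex V, lets them flow back through a ring of c subunits that turns the catalytic F1 head. Most subunits are encoded in the nucleus and imported, and the oxygen-consuming step makes the chain a usual object of study in hypoxia and reoxygenation.

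Values are FPKM, read fragments normalised to transcript length and sequencing depth, and the libraries did not share a common level. Summed FPKM was 1648012 to 1696488 in control, 730117 to 752065 in H/R and 467499 to 516231 in GA+H/R. On the deposited values the log2 change of the median locus was -1.25 from control to H/R and -0.50 from H/R to GA+H/R. Log2 changes below are therefore given on a scale relative to the median locus, with the change in the deposited FPKM named beside it wherever its direction differs, and a gene is said to rise or fall when limma gave a Benjamini-Hochberg adjusted p under 0.05 over all 10956 loci tested. Which scale is closer to RNA per cell was not tested. Fewer cells of a type and less RNA per cell cannot be told apart in these bulk libraries.

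Of the 10 symbols listed for parathyroid cells, 8 were in the table, and only PTH1R and VDR reached 1 FPKM in any library. GATA3 reached at most 0.0456 FPKM, CHGA 0.379 and CHGB 0.572. PTH, the hormone of parathyroid cells and their defining transcript, was at 0.0972 to 0.142 FPKM in control libraries and at 0 to 0.0439 in the others, and CASR and GCM2 were not found by symbol. PTH1R, a receptor that other cell types carry too, was at 93.3 to 205 FPKM in control libraries and at 44.1 to 55.8 in the others, and VDR at 1.96 to 3.12 and 0.749 to 1.05. The 8 of 10 parathyroid symbols in the table summed to 96.1 to 209 FPKM in control and 45.3 to 56.9 in the others. Nearly all of each sum was PTH1R. Fibroblast markers summed to 128832 to 193230 FPKM in control, 29429 to 29499 in H/R and 13933 to 14090 in GA+H/R over 10 of 11 symbols. Macrophage markers summed to 4.74 to 75.9, 19.6 to 22.9 and 146 to 152 FPKM over 9 of 13 symbols. Fibroblast sums fell from group to group, while macrophage sums in control spanned those of H/R and were highest in GA+H/R. The part of both lists in the results below was not tested. Control library 1 stood apart from the other control libraries, and the counts over all members, and counts and medians of lists that it moved by over 1.5 times, are given without it as well. Shares of all loci without that library are not given here.

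After hypoxia and reoxygenation most subunit transcripts rose relative to the median locus while their deposited FPKM fell. Of the 54 members tested, 39 rose, none fell and 15 were not called (72.2% higher; of all loci tested, 57.6% were called, 29.2% higher and 28.4% lower), and the median change was 0.78 against 0.00 for all loci. In the deposited FPKM, 7 of 51 rose and 37 fell (of all loci, 90.2% were called, 86% lower and 4.18% higher), with a median of -0.51 against -1.25. The median member thus dropped in FPKM by less than the median locus did. By limma 0 members were lower at an unadjusted p under 0.05 relative to the median locus. The share of all loci at that threshold is not given here. With each library brought to an equal total, 29 of 53 rose and 3 fell, where 2088 of all loci rose and 4447 fell. Without control library 1, 38 of 53 rose and none fell. A set of 7 members rose on both scales: ATP5E, ATP5G2 and ATP5H of ATP synthase, COX4I1 of complex IV, UQCRQ of complex III, and NDUFB11 and NDUFS6 of complex I. No member fell on both.

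With gallic acid before the injury, many subunit transcripts stood higher relative to the median locus than in H/R alone, while more of them fell than rose in the deposited FPKM. Of the 54 members, 28 rose, none fell and 26 were not called (51.9% higher; of all loci, 33.9% were called, 18.7% higher and 15.2% lower), with a median of 0.36 against 0.00. In the deposited FPKM, 2 of 51 rose and 18 fell (of all loci, 66% were called, 1.69% higher and 64.3% lower), with a median of -0.23 against -0.50. At an unadjusted p under 0.05 limma had 1 member lower relative to the median locus, NDUFS1, and the share of all loci is again not given. NDUFB4 of complex I and ATP5G2 of the c ring were the 2 that rose on both scales. Without control library 1, which enters this comparison through the scaling, the shared spread and the filter, 30 rose and 1, NDUFA4L2, fell. The comparison shares its H/R libraries with the one above, so the changes of a member in both are given side by side below and no overlap is drawn from them.

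Against untreated control, the gallic acid group had 44 of 54 members higher and 1 lower relative to the median locus (of all loci, 69.2% were called, 33.7% higher and 35.5% lower), with a median of 1.08 against -0.05. In the deposited FPKM 5 of 51 were higher and 39 lower (of all loci, 94.2% were called, 4.1% higher and 90.1% lower). Without control library 1, 43 of 53 were higher and 1 lower relative to the median locus. COX4I1, UQCRQ, ATP5E, ATP5G2 and NDUFS6 were higher on both scales. NDUFS1, the largest subunit of the NADH-oxidising arm of complex I, was the member lower on both, at -0.37 ± 0.09 (SE) relative to the median locus.

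**Figure D1:**
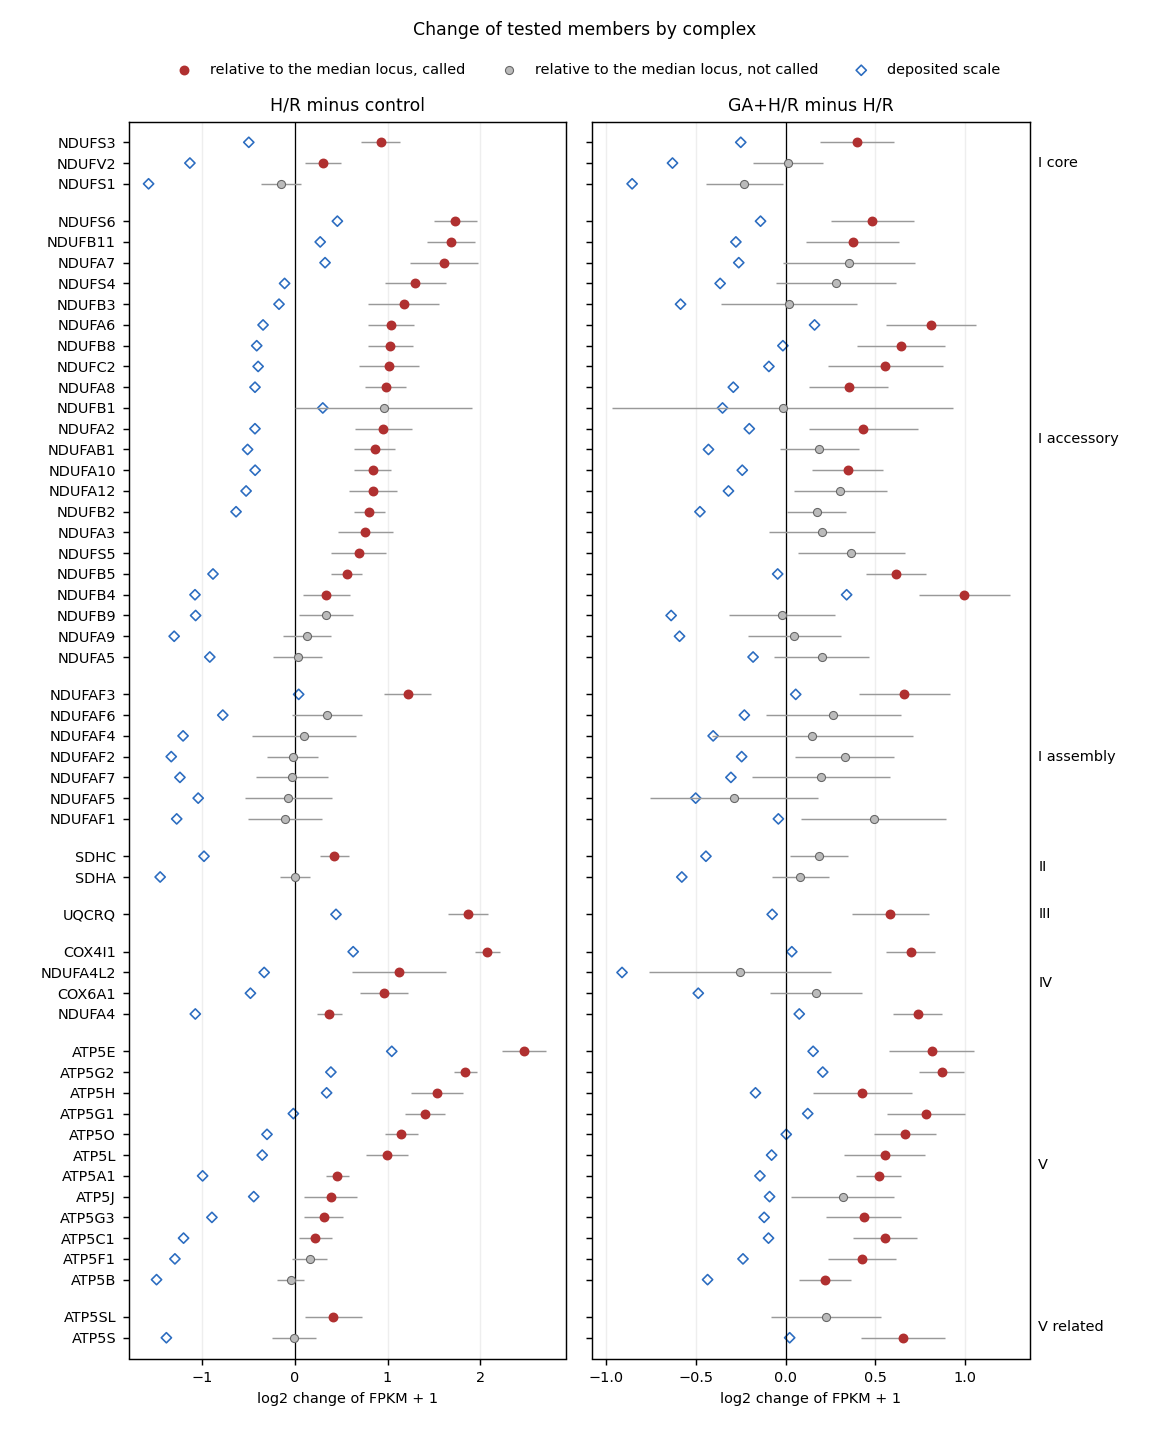
Log2 change of 53 of the 54 members tested, relative to the median locus, by complex, for H/R minus control and GA+H/R minus H/R. Filled points are fitted changes from 3 libraries a group (red where called), bars are 95% confidence intervals from limma, and open diamonds are the changes on the deposited scale. Most filled points lie right of 0 and most diamonds left of it, with medians over all members tested of 0.78 and 0.36 against -0.51 and -0.23.

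Complex I passes electrons from NADH to ubiquinone and holds most of the members. Of its 22 accessory subunits tested, 18 rose in H/R relative to the median locus (81.8%, against 29.2% of all loci) and none fell. Changes ran from 0.035 to 1.73. As deposited 2 of 20 rose and 14 fell (10% and 70%, against 4.18% and 86% of all loci). Gallic acid pretreatment gave 10 of 22 higher than in H/R (45.5%, against 18.7% of all loci) and none lower. As deposited 1 of 20 was higher and 9 lower (5% and 45%, against 1.69% and 64.3%). Among the largest was NDUFS6, an accessory subunit needed to complete the NADH-oxidising arm. It was at 7.74, 6.12 and 6.74 FPKM in control, 9.56, 10.4 and 9.43 after H/R and 8.90, 9.64 and 7.90 after GA+H/R. All H/R and GA+H/R libraries were above all controls even as deposited, and the injured groups overlapped each other. The change in H/R was 1.73 ± 0.10 (SE, n = 3 a group), and 0.46 in the deposited FPKM.

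NDUFB11, a membrane arm subunit, was at 29.3, 25.6 and 32.0 FPKM in control, 31.6, 35.9 and 38.2 after H/R and 26.7, 31.4 and 28.5 after GA+H/R. Its deposited values overlapped between control and H/R. It rose by 1.68 ± 0.11 relative to the median locus in H/R, against 0.28 as deposited. Gallic acid added 0.37 ± 0.11 relative to the median locus, while the deposited change was -0.28, and this call was lost without H/R library 1 or 2 or GA+H/R library 2 or 3 (0.31 to 0.39). NDUFB4, another membrane arm subunit, behaved differently in its deposited values. It was at 43.5, 50.4 and 42.3 FPKM in control, 21.5, 22.1 and 19.5 after H/R and 29.6, 27.3 and 24.0 after GA+H/R. Every GA+H/R library was above every H/R library and below every control library. Its change with gallic acid was 1.0 ± 0.11, the largest of the members in that comparison, and 0.34 as deposited, whereas in H/R it rose by 0.34 ± 0.11 relative to the median locus but fell by 1.07 as deposited. The rise in H/R was not called without control library 1 or 3 or H/R library 1 or 2 (0.28 to 0.33), nor at an equal total per library (0.060).

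The core subunits that carry flavin and iron-sulfur clusters or bind ubiquinone did not move as one. NDUFS1, in the NADH-oxidising arm, was at 92.7, 74.5 and 74.5 FPKM in control, 24.6, 27.3 and 27.1 after H/R and 15.3, 12.7 and 14.3 after GA+H/R. The groups did not overlap. Its change in H/R was -0.14 ± 0.09 relative to the median locus (95% interval -0.36 to 0.07, limma adjusted p = 0.220), -1.57 as deposited, and -0.43 at an equal total per library, where it was called. NDUFV2, which sits in the same arm, rose by 0.31 ± 0.09 relative to the median locus but fell by 1.13 as deposited, and its change with gallic acid was 0.02 ± 0.09. The rise of NDUFV2 was not called without H/R library 3 (0.27) or at an equal total per library (0.024). NDUFS3, in the arm that hands electrons to ubiquinone, rose by 0.93 ± 0.09 in H/R and by 0.40 ± 0.09 with gallic acid, against -0.49 and -0.25 as deposited. At an equal total per library the gallic acid change of NDUFS3 (0.31) was not called.

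At the lower end of complex I, NDUFA9, an accessory subunit beside the ubiquinone site, changed by 0.13 ± 0.11 in H/R and by 0.05 ± 0.11 with gallic acid relative to the median locus, neither called. Its deposited FPKM fell from 67.7, 75.8 and 74.5 in control to 27.2, 28.7 and 31.1 in H/R and 18.9, 16.8 and 21.3 in GA+H/R. NDUFB8, of the membrane arm, rose by 1.03 ± 0.11 and 0.64 ± 0.11, against -0.41 and -0.015 as deposited. NDUFB5 rose by 0.56 ± 0.07 and 0.61 ± 0.07, against -0.88 and -0.044. The deposited FPKM of NDUFB5 was 99.3, 103 and 101 in control and 50.6 to 56.6 in the other 6 libraries, where H/R and GA+H/R overlapped.

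The assembly factors NDUFAF1 to NDUFAF7 build complex I without staying in it. Of 7 tested, 1, NDUFAF3, rose in H/R relative to the median locus (14.3%, against 29.2% of all loci) and none fell. With gallic acid against H/R 1 rose, NDUFAF3 (14.3%, against 18.7% of all loci), and none fell. As deposited 6 of the 7 fell in H/R (85.7%, near the 86% of all loci) and 1 fell with gallic acid (14.3%, against 64.3%). None rose, against 4.18% and 1.69% of all loci. NDUFAF3 was at 5.28, 4.21 and 4.57 FPKM in control, 4.55, 5.41 and 4.60 after H/R and 4.54, 5.66 and 5.08 after GA+H/R. Its deposited values overlapped in all 3 groups, and its changes relative to the median locus were 1.22 ± 0.11 and 0.66 ± 0.11, against 0.044 and 0.056 as deposited. Over the 7 factors the changes in H/R ran from -0.10 to 1.22, and the difference between factors and subunits was not tested.

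Complex II oxidises succinate and links the chain to the citric acid cycle. SDHA, its flavin-carrying catalytic subunit, was at 414, 387 and 379 FPKM in control, 151, 137 and 143 after H/R and 97.3, 103 and 87.2 after GA+H/R. The groups were fully separated in the deposited values. Relative to the median locus the change was 0.01 ± 0.07 in H/R (95% interval -0.15 to 0.16) and 0.08 ± 0.07 with gallic acid (-0.08 to 0.24), and as deposited it was -1.45 and -0.58. The H/R change of SDHA was -0.28 and called lower at an equal total per library, and 0.21 and called higher under quantile normalization. SDHC, a membrane anchor of the same complex, was at 39.4, 37.7 and 35.9 FPKM in control, 19.2, 18.0 and 18.9 after H/R and 13.2, 13.2 and 13.9 after GA+H/R. It rose by 0.43 ± 0.07 in H/R relative to the median locus, was not called at an equal total per library (0.15), and fell by 0.98 as deposited. With gallic acid its change of 0.19 ± 0.07 was not called (limma adjusted p = 0.0700).

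Complex III was represented by UQCRQ, a small subunit beside cytochrome b. It was at 40.5, 44.5 and 43.8 FPKM in control, 59.8, 64.1 and 53.0 after H/R and 56.5, 54.6 and 56.2 after GA+H/R. All 6 injured libraries were above all controls in the deposited values. UQCRQ rose by 1.87 ± 0.09 in H/R (limma adjusted p = 6.16e-07), and by 0.45 as deposited. With gallic acid it rose by a further 0.58 ± 0.09 relative to the median locus, while the deposited change was -0.075.

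**Figure D2:**
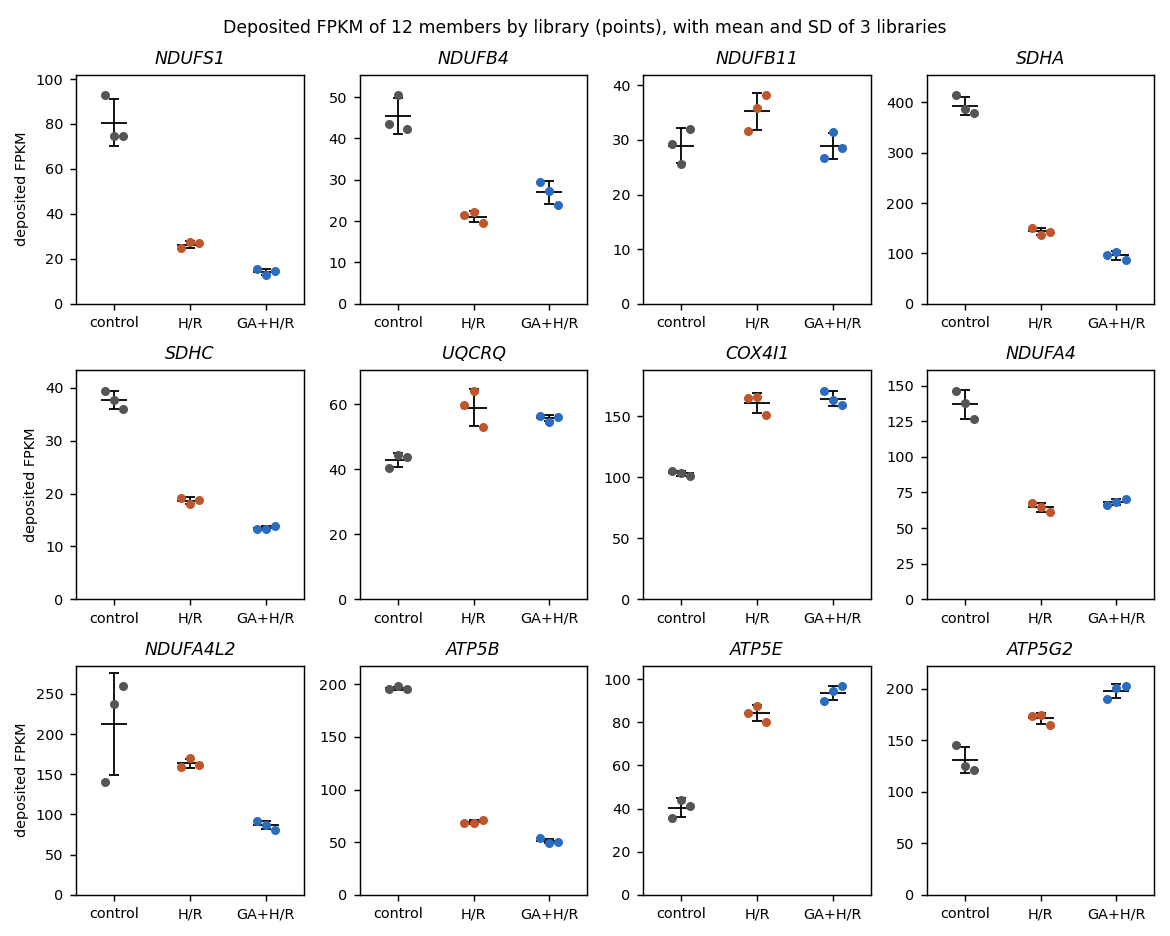
Deposited FPKM of single members in each of the 9 libraries, 3 points a group, with the group mean as a horizontal line and its SD as whiskers. ATP5E, COX4I1 and UQCRQ lie above control in every injured library, and SDHA, NDUFS1 and ATP5B lie below it.

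Complex IV reduces oxygen. COX4I1, its regulatory subunit 4 in the form found in most tissues, was at 106, 103 and 101 FPKM in control, 165, 165 and 151 after H/R and 171, 164 and 159 after GA+H/R. Controls lay apart from all injured libraries, which overlapped each other. COX4I1 rose by 2.08 ± 0.06 in H/R (limma adjusted p = 1.73e-08), and by 0.63 as deposited. Gallic acid added 0.70 ± 0.06 relative to the median locus, where the deposited change of 0.034 was not called. COX6A1, a small subunit of the same complex, rose by 0.97 ± 0.11 in H/R relative to the median locus but fell by 0.48 as deposited.

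NDUFA4 carries a complex I name, and the table describes it as a subunit of cytochrome c oxidase. It was at 146, 138 and 126 FPKM in control, 67.4, 65.1 and 61.3 after H/R and 66.2, 68.0 and 70.2 after GA+H/R. All control libraries were above all the others. It rose by 0.37 ± 0.06 in H/R relative to the median locus, against -1.07 as deposited and 0.088, not called, at an equal total per library, and by 0.74 ± 0.06 with gallic acid, against 0.076 as deposited, not called. NDUFA4L2 is its paralog, known as a hypoxia-inducible gene that lowers respiratory chain activity. It was at 140, 238 and 259 FPKM in control, 159, 170 and 161 after H/R and 91.3, 87.1 and 80.9 after GA+H/R. Control library 1 was below H/R and the other control libraries were above it, and every GA+H/R library was below all others. NDUFA4L2 rose by 1.12 ± 0.22 in H/R relative to the median locus, against -0.33 as deposited. Without control library 1 all 4 complex IV members were still called higher in H/R, with a median of 0.83 rather than 1.04. With gallic acid the change of NDUFA4L2 was -0.25 ± 0.22 relative to the median locus (limma adjusted p = 0.413), and -0.91 as deposited. Without control library 1 the change with gallic acid was -0.26 and was called.

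ATP synthase makes ATP in its F1 head, which has alpha, beta, gamma, delta and epsilon subunits. Of 12 complex V subunits tested, 10 rose in H/R relative to the median locus (83.3%, against 29.2% of all loci) and 11 rose with gallic acid (91.7%, against 18.7%), and none fell in either. As deposited 3 rose and 8 fell in H/R (25% and 66.7%, against 4.18% and 86% of all loci). With gallic acid 1 rose and 2 fell as deposited (8.33% and 16.7%, against 1.69% and 64.3%). At an equal total per library 7 rose and 1 fell in H/R, where 2088 of all loci rose and 4447 fell. ATP5E, the small epsilon subunit of the central stalk, had the largest rise of all members in H/R against control. It was at 35.6, 44.2 and 41.4 FPKM in control, 84.5, 87.7 and 80.3 after H/R and 90.0, 94.4 and 96.7 after GA+H/R. The 3 groups did not overlap, and they were ordered control, H/R, GA+H/R. ATP5E rose by 2.47 ± 0.10 in H/R (limma adjusted p = 1.78e-07), and by 1.05 as deposited. Gallic acid added 0.82 ± 0.10 relative to the median locus, where the deposited change of 0.15 was not called.

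ATP5B, the catalytic beta subunit of the same head, did not follow the epsilon subunit. It was at 196, 198 and 195 FPKM in control, 68.4, 68.6 and 71.5 after H/R and 53.6, 49.3 and 50.6 after GA+H/R. Each group lay below the one before in that order. Relative to the median locus ATP5B changed by -0.04 ± 0.06 in H/R (95% interval -0.18 to 0.11) and rose by 0.22 ± 0.06 with gallic acid, while the deposited changes were -1.49 and -0.44. The call with gallic acid was lost without control library 2, any H/R library, or GA+H/R library 1 or 3 (0.19 to 0.24), and in H/R the change was -0.33 and called at an equal total per library. ATP5A1, the alpha subunit, rose by 0.46 ± 0.06 and 0.52 ± 0.06, against -0.99 and -0.14 as deposited. ATP5C1, the gamma subunit, rose by 0.22 ± 0.08 and 0.55 ± 0.08, against -1.20 and -0.095. Its call in H/R was lost without any 1 library other than control library 1 (0.21 to 0.23), and the change was -0.058 at an equal total per library. The log2 ratio of ATP5E to ATP5B, which does not depend on the scale between libraries and was chosen after its values were seen, was -2.29 ± 0.15 in control, 0.28 ± 0.10 after H/R and 0.87 ± 0.11 after GA+H/R (SD, n = 3).

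The peripheral stalk holds the F1 head still while the central stalk turns. ATP5O, which joins stalk and head, was at 134, 143 and 144 FPKM in control, 108, 114 and 120 after H/R and 110, 117 and 116 after GA+H/R. It rose by 1.15 ± 0.08 and 0.67 ± 0.08, against -0.30 and 0.0034 as deposited. ATP5H, the d subunit of the stalk, rose by 1.53 ± 0.12 in H/R and by 0.34 as deposited. ATP5F1, the b subunit, changed by 0.16 ± 0.08 in H/R, not called, and rose by 0.42 ± 0.08 with gallic acid, against -1.29 and -0.24 as deposited. Without control library 1 the change of ATP5F1 in H/R was 0.24 and was called. ATP5S, a coupling factor linked to the enzyme, changed by -0.0065 ± 0.10 in H/R, against -1.38 as deposited.

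ATP5G1, ATP5G2 and ATP5G3 encode the same mature c subunit behind different import sequences, so their reads may be hard to assign. The description of the ATP5G3 row is that of an unnamed protein product. ATP5G2 was at 146, 125 and 121 FPKM in control, 174, 175 and 165 after H/R and 190, 201 and 202 after GA+H/R. The 3 groups did not overlap and rose in that order. Its changes were 1.84 ± 0.05 in H/R and 0.87 ± 0.05 with gallic acid, and 0.39 and 0.21 as deposited. ATP5G1 was at 43.0, 47.1 and 35.7 FPKM in control, 42.3, 41.4 and 40.1 after H/R and 43.7, 43.5 and 48.0 after GA+H/R. Its deposited values overlapped between control and both other groups, and relative to the median locus it rose by 1.41 ± 0.10 in H/R, against -0.014 as deposited, and by 0.78 ± 0.10 with gallic acid, against 0.12 as deposited, not called. ATP5G3 was at 7.17, 7.03 and 7.11 FPKM in control, 3.30, 3.20 and 3.62 after H/R and 2.94, 3.22 and 2.91 after GA+H/R. It rose by 0.31 ± 0.09 and 0.43 ± 0.09 relative to the median locus, against -0.89 and -0.12 as deposited, and its call in H/R was lost without H/R library 3 (0.27) and at an equal total per library (0.077).

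Ratios between paralogs do not depend on the scale between libraries. The log2 ratio of NDUFA4L2 to NDUFA4 was 0.59 ± 0.58 in control, 1.34 ± 0.09 after H/R and 0.34 ± 0.13 after GA+H/R (SD, n = 3). H/R lay above both other groups with no overlap, whereas GA+H/R lay inside the range of the controls. The differences were 0.75 in H/R against control, or 0.43 without control library 1, and -1.0 with gallic acid. The log2 ratio of ATP5G2 to ATP5G3 was 4.20 ± 0.13, 5.67 ± 0.14 and 6.03 ± 0.08, and that of ATP5G1 to ATP5G3 was 2.55 ± 0.21, 3.61 ± 0.12 and 3.90 ± 0.14, in the same order of groups. In both, each group lay above the one before with no overlap. ATP5G1 lost ground to ATP5G2, with a log2 ratio of -1.65 ± 0.20 in control, -2.05 ± 0.02 after H/R and -2.13 ± 0.07 after GA+H/R. With 3 libraries a group the two-sided exact permutation test cannot go below p = 0.1, the value of 11 of the 12 tests (0.109 adjusted over them), so none could pass 0.05. The remaining test, NDUFA4L2 to NDUFA4 in GA+H/R against control, had an exact permutation p of 0.5.

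**Figure D3:**
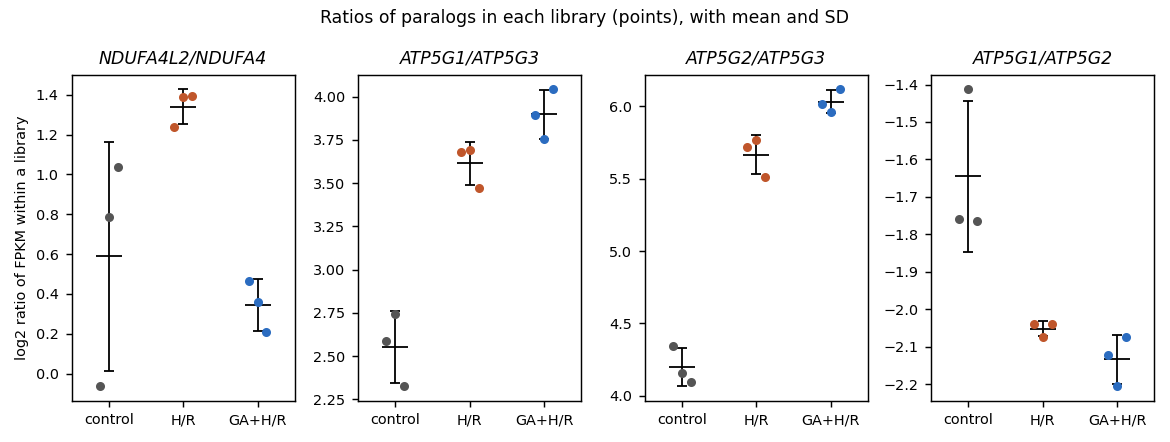
Log2 ratio of the FPKM of paired subunit genes in each library, 3 points a group, with the group mean as a horizontal line and its SD as whiskers. The ratio of NDUFA4L2 to NDUFA4 is highest in H/R, and the ratios of ATP5G1 and ATP5G2 to ATP5G3 are higher in both injured groups than in control.

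Several members were at a low level. NDUFA11, NDUFA13, ATP5I and ATP5J2 did not reach the filter and were between 0.0374 and 0.669 FPKM in every library, and the description of the NDUFA13 row is that of another protein. Another 5 members, NDUFA3, NDUFB1, NDUFS5, ATP5J and ATP5SL, passed the filter with a scaled mean under 1 in at least 1 group, so passing and a difference between groups are not independent for them. For 17 of the 58 members, 24 other loci in the table share the protein description, so near-identical copies could have taken part of their reads. Loci that the table's own KEGG annotation places in oxidative phosphorylation but names only by number count 93, of which 41 were tested. Relative to the median locus 29 of them rose in H/R, with a median of 0.58 (70.7%, against 29.2% of all loci). On the deposited scale 4 of 37 rose and 21 fell (10.8% and 56.8%, against 4.18% and 86% of all loci).

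A list of ATP export and its regulation holds carriers of ATP, ADP and phosphate, outer membrane channels, uncoupling proteins and ATPIF1, an inhibitor of ATP synthase. Counts in these lists are read against all loci, of which 29.2% rose and 28.4% fell in H/R relative to the median locus, and 4.18% rose and 86% fell as deposited. Of 9 genes of the ATP export and regulation list tested, 8 rose in H/R relative to the median locus (median 0.64), while 1 rose and 7 fell as deposited. UCP2, an inner membrane carrier of the uncoupling protein family, rose by 2.17 ± 0.25, and by 1.39 as deposited. SLC25A4, an ADP/ATP carrier, rose by 1.07 ± 0.06 relative to the median locus, against -0.39 as deposited. Import and cristae genes gave 15 higher and 1 lower of 23 in H/R (median 0.58), with 2 higher and 14 lower of 20 as deposited. Assembly factors of the other complexes gave 5 higher of 17 (median 0.26), with 14 of 17 lower as deposited, shares of 29.4% and 82.4% that lie near those of all loci.

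Enzymes of the citric acid cycle and of pyruvate dehydrogenase gave 10 higher and 5 lower of 23 in H/R relative to the median locus (median 0.18), or 11 and 3 without control library 1, and 21 lower as deposited (median -1.01). Genes that feed electrons to ubiquinone or make it gave 7 higher and 1 lower of 16 (median 0.25), and 1 higher and 13 lower as deposited (median -0.76), with ETFB, an electron transfer flavoprotein subunit, at 1.79 ± 0.15 (0.43 as deposited). Regulators of mitochondrial biogenesis gave 1 higher and 6 lower of 12 (median -0.44, or -0.28 without control library 1), and all 13 tested on the deposited scale fell. GABPA, which binds promoters of many respiratory chain genes, fell by 0.95, and TFAM, the packaging and transcription factor of mitochondrial DNA, fell by 0.86. HIF targets and glycolytic genes gave 6 higher and 6 lower of 27 (median 0.083), shares near those of all loci. Without control library 1 they gave 5 higher and 11 lower (median -0.056), and as deposited 26 lower and none higher (median -1.29).

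With gallic acid against H/R, 18.7% of all loci rose and 15.2% fell relative to the median locus, and 1.69% and 64.3% as deposited. The ATP export and regulation list gave 6 of 9 higher (median 0.55), and 1 higher and 4 lower as deposited (median -0.12), with SLC25A5, another ADP/ATP carrier, at 0.96 ± 0.04 (0.30 as deposited). Import and cristae genes gave 14 of 23 higher (median 0.41), against 6 of 20 lower as deposited. Assembly factors of the other complexes gave 6 of 17 higher (median 0.27), and 1 higher and 6 lower as deposited (median -0.30), with TTC19, a complex III assembly factor, at 1.17 ± 0.09 (0.51 as deposited). Biogenesis regulators gave 3 higher and 1 lower of 12 (median 0.075), and 8 of 13 lower and none higher as deposited. Citric acid cycle enzymes gave 7 higher and 1 lower of 23 (median 0.17), and 18 of 23 lower and none higher as deposited. Genes that feed electrons to ubiquinone or make it gave 4 higher and 1 lower of 16 (median 0.18), and 7 lower as deposited. HIF targets and glycolytic genes gave 4 higher and 3 lower of 27 (median 0.053), 9 and 6 without control library 1, and 19 lower as deposited.

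Many subunit transcripts are short in general, but no lengths were used here. Housekeeping genes outside the respiratory chain, listed beforehand as having short or long transcripts, moved apart. Of 33 short housekeeping transcripts tested, 27 rose and 1 fell in H/R relative to the median locus, with a median of 1.05, above the members' 0.78. Of 34 long housekeeping transcripts, 1 rose and 26 fell, with a median of -0.47. With gallic acid against H/R the short list gave 16 higher (median 0.36, equal to that of the members), and the long list 2 higher and 20 lower (median -0.31). On the deposited scale the short list gave 5 higher and 17 lower and the long list 34 lower in H/R, and with gallic acid 1 higher and 10 lower and 33 lower. Without control library 1 the long list gave 2 higher in H/R and 4 with gallic acid. The part of transcript length in the members' changes was not tested.

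**Figure D4:**
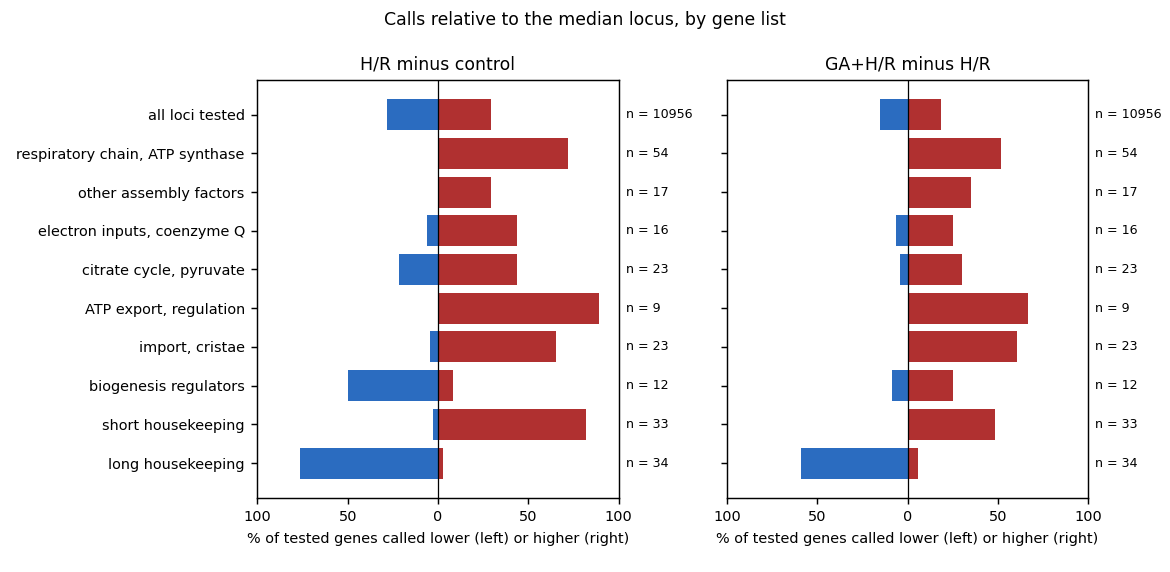
Percent of tested genes called higher or lower relative to the median locus in each list, for H/R minus control and GA+H/R minus H/R, with all loci tested as background. Short housekeeping transcripts, at 27 of 33 higher in H/R, stand beside the respiratory chain members, at 39 of 54, while on the deposited FPKM scale most genes of both lists that were called fell.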

How the data were processed

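Primary rabbit cells gave 9 RNA libraries from total RNA. The authors deposited one table of FPKM values with a column per library, per the file headers; the aligner, quantifier and scaling are not given in the sources used here. Per the submitters' processing notes the builds are GRCm38 and mm10 of mouse, but the table's transcripts are rabbit ones, and coordinates were not used. The deposited p-value and q-value of a test across the 3 groups were not used. Depth is unknown without counts.

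Libraries were scaled by their median ratio to the average library, computed on the 8448 loci that reached 1 FPKM everywhere. Testing was limited to loci reaching a scaled FPKM of 1 in 3 or more libraries, and log2(value + 1) was fitted over all 9 libraries with limma 3.58.1 in R 4.3.3 (trend and robust settings), two-sided, with Benjamini-Hochberg adjustment over 10956 loci. Fold changes on that scale understate changes of low loci. The fit was tested on simulated data and repeated on deposited FPKM and under the alternatives of the closing section. FPKM by library was given by rule for, per complex, the members with the highest and lowest change and a mean of at least 10 FPKM, for complex II and for the paralog pairs, and up to 3 called genes per other list; the further members named were added after their values were seen. The members and lists were chosen with earlier results of these data known. The counts include 1 member whose own values are not reported here.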

Additional observations from a re-analysis of the deposited data

How the results depend on the processing

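The scale between libraries decides the direction of most values. On the deposited FPKM the members numbered 7 higher and 37 lower in H/R against control (median -0.51), 2 and 18 with gallic acid against H/R (-0.23), and 5 and 39 in GA+H/R against control (-0.84). With an equal total per library the lower calls were 3, 0 and 4 and the medians 0.57, 0.29 and 0.77, and all loci had a median of -0.24, -0.070 and -0.37. Quantile normalization gave medians of 0.66, 0.36 and 1.0 and 2 lower in GA+H/R against control. A pseudocount of 0.1 gave medians of 0.91, 0.39 and 1.20, a filter of at least 5 FPKM gave 0.86, 0.42 and 1.17, and no filter gave 0.63 for H/R and 1.01 for GA+H/R, each against control. Fitting only H/R and GA+H/R gave 1 member lower with gallic acid. The whole median shifts with the scaling. Of the loci called in H/R, 50.7% were higher relative to the median locus, 4.64% as deposited and 32.0% at equal totals.

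Over all members, 23 were called higher relative to the median locus but lower as deposited in H/R against control. The same held for 4 with gallic acid against H/R and for 30 in GA+H/R against control. Only members named above are listed here with their reversed values, so the list is not complete. In H/R against control the values were -1.07 for NDUFB4, -1.45 for SDHA, -0.98 for SDHC, -1.07 for NDUFA4, -0.33 for NDUFA4L2, -0.014 for ATP5G1, -0.89 for ATP5G3, -0.49 for NDUFS3, -1.13 for NDUFV2, -1.30 for NDUFA9, -0.41 for NDUFB8, -0.88 for NDUFB5, -0.48 for COX6A1, -0.99 for ATP5A1, -1.20 for ATP5C1, -1.29 for ATP5F1 and -0.30 for ATP5O. With gallic acid against H/R they were -0.28 for NDUFB11, -0.58 for SDHA, -0.44 for SDHC, -0.075 for UQCRQ, -0.44 for ATP5B, -0.12 for ATP5G3, -0.25 for NDUFS3, -0.63 for NDUFV2, -0.14 for NDUFS6, -0.59 for NDUFA9, -0.015 for NDUFB8, -0.044 for NDUFB5, -0.49 for COX6A1, -0.14 for ATP5A1, -0.095 for ATP5C1, -0.24 for ATP5F1 and -0.17 for ATP5H. NDUFA4L2 was at -1.24 in GA+H/R against control. At equal totals SDHA was at -0.28 and ATP5C1 at -0.058 in H/R.

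Leaving out 1 library at a time gave 34 to 40 members higher in H/R (medians 0.70 to 0.81), 22 to 30 with gallic acid (0.34 to 0.40) and 41 to 44 in GA+H/R against control (1.0 to 1.1), with 0 to 0, 0 to 1 and 1 to 1 lower. The difference in the log2 ratio of NDUFA4L2 to NDUFA4 ran from 0.43 to 0.98 in H/R against control and from -1.06 to -0.93 with gallic acid, and that of ATP5G1 to ATP5G2 from -0.47 to -0.29 and from -0.11 to -0.046. Over 9 same-numbered pairs of libraries, r of deviations from group means ran from -0.02 to 0.03. With 3 libraries a group this cannot exclude pairing. The replicate block gave 39, 27 and 44 members higher. Centring on protein length was not run, since no table of protein lengths was used here. Without counts, the depth behind low members is unknown.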
